A study of Mus musculus with 4 samples.

Results

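The 10 genes described here encode Toll-like receptors and the proteins that assist them, namely Tlr1, Tlr2, Tlr3, Tlr4, Tlr7, Tlr9 and Tlr13 with Cd14, Ly86 and Cd180. They were taken by symbol from the 32285 genes of the count matrices, and all 10 were present in each matrix. The cells were live CD45+ cells, that is leukocytes with microglia included, sorted from mice after cortical brain injury, separately for 2 regions, thalamus and hippocampus (HPC). The single-cell RNA sequencing (scRNA-seq) data held 8 matrices, 4 per region. Each matrix is called a set here and was taken to hold tagged cells of 1 mouse although no label says so, and the p-values measure only the spread between these sets. Sets are numbered 1 to 4 in each region, and no label says whether equal numbers mark the same mice. All sets shared the genotype, given as C57B6/J, and the treatment, cortical brain injury. No uninjured cells were analysed here, and the labels give neither age nor time after injury. Each region was a single droplet library, and the effects of region and of library cannot be told apart. The thalamus was compared with the HPC because the study asked how microglial responses to the injury differ between these regions.

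Toll-like receptors are sentinel receptors of innate immunity that bind microbial molecules and products of damaged cells. Tlr1, Tlr2 and Tlr4 act at the cell surface, whereas Tlr3, Tlr7, Tlr9 and Tlr13 read nucleic acids inside endosomes. Most of them signal through the adaptor Myd88 to NF-kB, while Tlr3 uses Ticam1, and microglia are the main brain cells that carry them. Cd14 hands bacterial lipids to Tlr4 and Tlr2, and Ly86 (MD-1) forms a surface complex with Cd180 (RP105), a receptor related to Tlr4 that lacks the signalling domain.

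In GRCm38 (GENCODE M21) the 10 genes are protein coding and spread over 8 chromosomes. Tlr2 lies at chr3:83836272-83841767, Tlr4 at chr4:66827584-66930284, Tlr1 at chr5:64924679-64933563, Tlr3 at chr8:45395665-45411080 and Tlr9 at chr9:106222598-106226883. Ly86 and Cd180 share chromosome 13, at chr13:37345208-37419036 and chr13:102693558-102739629, and Tlr13 and Tlr7 share the X chromosome, at chrX:106143204-106160493 and chrX:167304929-167330558. None overlapped another gene on its own strand, while Tlr3 and Cd180 each overlap a gene on the opposite strand (Gm45542 and Mast4).

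The RefSeq promoter table (GRCm38.p6) held 7 of the 10 genes. The 250 bases before each RefSeq start were searched on both strands for an NF-kB motif (GGG, any 3 bases, TTCC), a PU.1 motif (GAGGAAGT) and an interferon-response motif (GAAA, any 2 bases, GAAA), which matched 4.65%, 2.44% and 2.98% of all 32851 promoters. NF-kB is the factor at the end of the pathway and PU.1 the lineage factor of myeloid cells, so the 26 bases around each match are shown, 5′ to 3′ on the gene's strand, with the match in capitals. The NF-kB matches are at chr3:83841764-83841789 (Tlr2) and chr8:45410574-45410599 (Tlr3), and the PU.1 match is at chr5:64933565-64933590 (Tlr1). RefSeq starts Tlr2 and Tlr3 inside the spans given above, so their windows reach back from there.
Tlr2: ggacacctGGGGAATTCCcacacgga
Tlr3: ttgtttctGGGAGTTTCCtgcttttg
Tlr1: taaatgttgGAGGAAGTaggagcttg
No interferon-response match stood in these windows, the Tlr3 window included. A match is only a run of letters, and binding was not measured. Below, Tlr2 was higher and Tlr3 lower in DAM-like (disease-associated) than in homeostatic-like microglia. Both were higher in interferon-like microglia. Whether the matches bear on these levels was not tested.

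After filters on genes and mitochondrial counts 24939 of 29190 cells remained, with 2072 to 5389 cells and 9789875 to 26636526 UMIs (molecules counted once) per set. Cells were gated by marker genes, which gave 18944 microglia, 3040 T or NK cells, 876 neutrophils, 361 macrophages or monocytes, 209 dendritic cells and 77 B cells, with 5.74% left ungated. Microglia held a median of 11 of 12 microglial markers and 0 of the T or NK markers. Over sets with at least 20 cells, neutrophils held 380 to 1979 summed UMIs per 10000 of their own markers. They held 2.41 to 25.3 of those of macrophages or monocytes, which themselves held 59.0 to 75.6. Dendritic cells held 20.9 to 22.2 of their own markers, 13.8 to 24.8 of macrophage or monocyte markers and 7.53 to 19.2 of T or NK markers. The part of cells of another class in the levels of these classes was not tested. HPC set 1 stood apart in its makeup, with 487 neutrophils and 57 B cells against 5 to 31 and 0 to 2 in the other HPC sets. Microglia with fewer than 40 UMIs per 10000 of Malat1, a nuclear RNA, made up 4.34% to 14.3% in the thalamus and 0.153% to 1.84% in the HPC. No barcode was shared by sets of a region, and 65 were shared across regions. Microglia were divided by marker scores into homeostatic-like cells, DAM-like cells (disease-associated microglia, marked by Spp1, Lpl, Cst7 and Cd9) and interferon-like cells (marked by Ifit and Isg genes). None of the 10 genes was used in a gate. DAM-like cells made up 26.9% ± 8.06 of microglia in the thalamus and 3.15% ± 1.95 in the HPC (SD, n = 4 each), and homeostatic-like cells 46.4% ± 13.04 and 82.6% ± 10.5. Both states are ranges of a score, and 1080 microglia lay within 0.1 of the DAM limit.

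Expression across cell classes was compared first, as UMIs per 10000 UMIs of the class, in sets with at least 20 cells of it. These counts tag the 3' end and are not scaled by transcript length, so each gene was compared with itself across cells. Microglia carried all 10 genes, macrophages or monocytes most of them, neutrophils chiefly Tlr2, Tlr4, Tlr13 and Cd14, and T or NK cells had the lowest levels of most. The test was edgeR's quasi-likelihood test on UMIs summed per class and set, with the set as a block and p-values adjusted over all genes. In the counts below, "higher" and "lower" are genes with an adjusted p under 0.05.

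**Figure D1:**
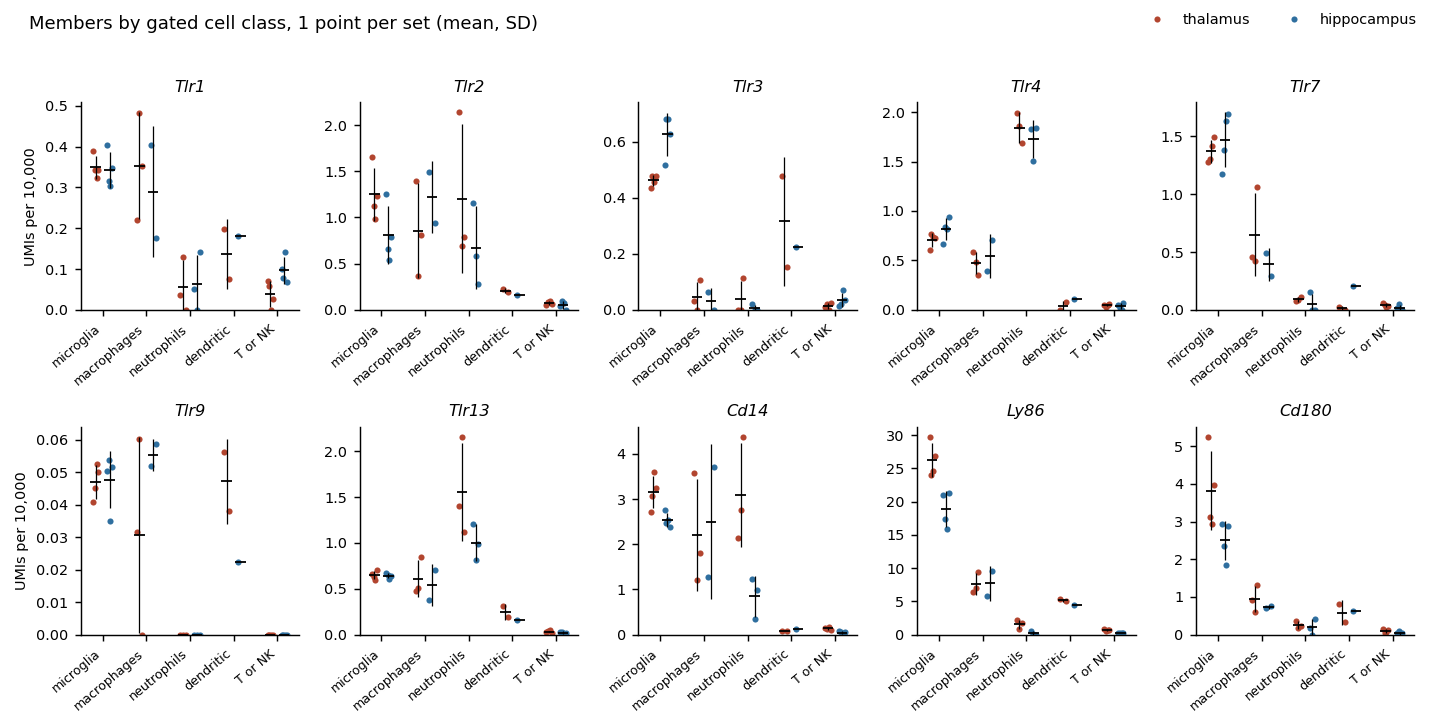
Level of each gene in UMIs per 10000 (y axis, from 0) in gated microglia, macrophages or monocytes, neutrophils, dendritic cells and T or NK cells (x axis). Each point is a set with at least 20 cells, red for thalamus and blue for HPC, with the mean as a bar and the SD as a line that is clipped at 0. Tlr4 and Tlr13 were highest in neutrophils, and Ly86, Cd180, Tlr3 and Tlr7 in microglia.

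Among surface receptors, Tlr4, which detects bacterial lipopolysaccharide, was highest in neutrophils. It measured 1.99, 1.85 and 1.68 UMIs per 10000 in neutrophils of thalamus sets 1, 2 and 4, and 1.83, 1.503 and 1.84 in those of HPC sets 1, 2 and 4. Microglia ranged from 0.608 to 0.935 over the 8 sets, so every neutrophil value was above every microglial one. The difference was 1.17 ± 0.18 on the log2 scale (SE, 6 sets, adjusted p = 3.57e-08). Macrophages or monocytes followed microglia with 0.504 ± 0.145 (SD, n = 5) against 0.761 ± 0.102 (n = 8), which were not separated (adjusted p = 0.0958), and without thalamus set 1 the call was gained (log2 -0.53, adjusted p = 0.0295). Dendritic cells (0.0628 ± 0.0574, n = 3) and T or NK cells (0.0405 ± 0.0219, n = 8) came last.

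Tlr2, the partner of Tlr1 and Tlr6 in the recognition of bacterial lipoproteins, had overlapping values in the 3 myeloid classes. It measured 1.03 ± 0.363 in microglia (n = 8), 1.00 ± 0.459 in macrophages or monocytes (n = 5) and 0.940 ± 0.653 in neutrophils (n = 6). Neither difference from microglia passed the test (adjusted p = 0.676 and 0.113), and without thalamus set 1 neutrophils were lower (log2 -0.58, adjusted p = 0.03). Dendritic cells held 0.191 ± 0.0341 (n = 3) and were lower than microglia by -2.69 ± 0.27 (log2, SE, adjusted p = 2.19e-10). Tlr1 ran from 0.346 ± 0.0349 in microglia and 0.328 ± 0.127 in macrophages or monocytes to 0.151 ± 0.0656 in dendritic cells, 0.0678 ± 0.0431 in T or NK cells and 0.0597 ± 0.0621 in neutrophils.

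The endosomal receptors divided the classes differently. Tlr3, the sensor of double-stranded RNA, measured 0.544 ± 0.102 in microglia and 0.286 ± 0.172 in dendritic cells, a difference that did not pass the test (adjusted p = 0.139), except without thalamus set 1 (log2 -1.18, adjusted p = 0.0155). Macrophages or monocytes held 14 Tlr3 UMIs in all and neutrophils 3. Macrophages or monocytes were lower than microglia by -3.28 ± 0.35 on the log2 scale (adjusted p = 2.75e-09). Tlr7, a sensor of single-stranded RNA, measured 1.42 ± 0.175 in microglia and 0.546 ± 0.297 in macrophages or monocytes (log2 -1.12 ± 0.18, adjusted p = 3.8e-06) and at most 0.0769 on average in neutrophils, dendritic cells and T or NK cells. Tlr13, which reads bacterial ribosomal RNA, was highest in neutrophils, with values from 0.809 to 2.16 over 6 sets against 0.6 to 0.704 in microglia (log2 0.87 ± 0.20, adjusted p = 8.44e-05). Tlr9, the sensor of unmethylated DNA, was rare everywhere, at 0.0475 ± 0.00663 in microglia. No Tlr9 UMI was found in neutrophils or T or NK cells. With a limit of 3 UMIs over the class, microglia were at least 2.85-fold higher than neutrophils and at least 18.7-fold higher than T or NK cells, counting error only.

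The accessory genes were mostly highest in microglia. Ly86 measured 22.6 ± 4.63 in microglia, 7.63 ± 1.76 in macrophages or monocytes, 4.93 ± 0.433 in dendritic cells, 0.909 ± 0.866 in neutrophils and 0.480 ± 0.254 in T or NK cells. Cd180 had the same order of means, with 3.16 ± 1.04 in microglia, 0.862 ± 0.276, 0.597 ± 0.24, 0.229 ± 0.152 and 0.0684 ± 0.0503. Each class was lower than microglia in both genes, for example macrophages or monocytes in Cd180 by -1.91 ± 0.16 (log2, adjusted p = 6.3e-12), and neighbours below microglia were not tested against each other. In neutrophils of thalamus and HPC, Cd180 stood at 6.07% and 6.95% of its microglial level, and the summed microglial markers at 7.99% and 6.33%. In T or NK cells Cd180 stood at 2.42% and 1.56%, and these markers at 3.63% and 2.75%. The part of stray microglial RNA in these values was not tested. Cd14, at chr18:36725067-36726798, measured 2.85 ± 0.421 in microglia, 2.32 ± 1.24 in macrophages or monocytes and 1.97 ± 1.46 in neutrophils, with 0.0985 ± 0.0318 in dendritic cells and 0.0929 ± 0.0557 in T or NK cells. Macrophages or monocytes were not separated from microglia in Cd14 (adjusted p = 0.261), but were lower without HPC set 2 (log2 -0.48, adjusted p = 0.0437) or thalamus set 1 (log2 -0.53, adjusted p = 0.0044). Neutrophils were lower by -0.75 ± 0.19 (adjusted p = 0.000375), but their level averaged 101% of the microglial one in the thalamus (78.6% to 135% over 3 sets) and 33.3% in the HPC (14.1% to 44.5%). This call was lost without HPC set 1 (adjusted p = 0.0848) or HPC set 2 (adjusted p = 0.0664).

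In sum over the classes, macrophages or monocytes had 0 genes higher and 4 lower than microglia (22% of all 12744 genes tested were higher and 27.5% lower). Neutrophils had 2 higher and 7 lower (19.6% and 47% of all genes), dendritic cells 0 higher and 8 lower (18.8% and 23.5%), and T or NK cells 0 higher and 10 lower (36.1% and 40.5%). The lower call of Tlr1 in dendritic cells (log2 -1.12 ± 0.36, adjusted p = 0.0103) was lost without HPC set 1 (adjusted p = 0.0642) or thalamus set 2 (adjusted p = 0.0713). These fits rescale each class, which moved the median gene by 0.158 (macrophages or monocytes), -0.127 (neutrophils) and 0.156 (dendritic cells) on the log2 scale from the ratio of plain levels. B cells, with a single set of 20 or more cells (57 cells) and so no test, held 187 UMIs of Ly86, 55 of Cd180 and 0 of Tlr13.

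The share of cells with a UMI was read after each microglia had been thinned to 2970 UMIs, which kept 17051 of 18944. Ly86 was found in 97.9% of microglia, Cd14 in 52.8%, Cd180 in 51.1%, Tlr7 in 32.0% and Tlr9 in 1.47%. T or NK cells at the same depth showed Ly86 in 12.0%, Cd14 in 2.99%, Cd180 in 2.08%, Tlr7 in 1.18% and Tlr9 in 0 of 2209 cells, which allows a share of up to 0.136% of cells with a UMI at this depth and sets no limit on cells that express the gene. Median depths were 4702.5 UMIs in microglia and 3584 in T or NK cells. None of the 10 shares differed between thalamus and HPC microglia at an unadjusted p under 0.05 in exact permutation tests over the 8 sets, two-sided, where 0.0286 is the smallest p that 70 assignments can give. The nearest were Tlr3 (12.8% ± 1.30 against 16.4% ± 1.60) and Ly86 (98.6% ± 0.0997 against 97.4% ± 1.34), each with an exact p of 0.0571. Within each of the 4 set numbers the shares of Tlr2 and Cd180 were higher and those of Tlr3 and Tlr4 lower in the thalamus. An exact permutation test within the numbers, added after the data were seen, gave each of these 4 genes p = 0.125 (two-sided), the smallest that 4 pairs allow.

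Between regions, gated microglia of the thalamus held more Ly86 and Cd14 and less Tlr3 than those of the HPC. Ly86 measured 29.7, 24.0, 24.5 and 26.8 UMIs per 10000 in thalamus sets 1 to 4, and 21.0, 17.4, 15.9 and 21.4 in HPC sets 1 to 4. Every thalamus set was above every HPC set. The fitted difference was 0.54 ± 0.13 (log2, SE, adjusted p = 0.0278). The call was lost without HPC set 2 (adjusted p = 0.0887), HPC set 3 (0.0596), thalamus set 1 (0.0729) or thalamus set 4 (0.0753), with log2 values of 0.45 to 0.53.

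Tlr3 went the other way, with 0.435, 0.479, 0.456 and 0.478 in the thalamus sets and 0.516, 0.681, 0.680 and 0.629 in the HPC sets. All thalamus values lay below all HPC values. The log2 difference was -0.37 ± 0.07 (adjusted p = 0.0104), and it passed the test with any single set left out (adjusted p up to 0.0407). Cd14 measured 2.72, 3.07, 3.59 and 3.24 in thalamus sets and 2.75, 2.47, 2.54 and 2.39 in HPC sets, where thalamus set 1 fell just under HPC set 1. Its log2 difference was 0.37 ± 0.08 (adjusted p = 0.0194), lost without HPC set 2 (adjusted p = 0.0689), HPC set 4 (0.0632) or thalamus set 4 (0.0593).

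Cd180 and Tlr2 had the largest fitted values but a wide spread. Cd180 measured 5.24, 3.13, 2.95 and 3.97 in thalamus sets and 2.95, 2.34, 1.84 and 2.89 in HPC sets (log2 0.67 ± 0.22, adjusted p = 0.0672). Tlr2 measured 1.65, 1.13, 0.988 and 1.23 in thalamus sets and 1.26, 0.664, 0.542 and 0.789 in HPC sets (log2 0.67 ± 0.27, adjusted p = 0.124). For both genes set 1 was the highest of its region. Within each set number the thalamus value was above the HPC value, and with the number as a block both passed (Cd180 adjusted p = 4.32e-05, Tlr2 adjusted p = 8.84e-05). Without HPC set 1 Cd180 (log2 0.79, adjusted p = 0.0265) and Tlr2 (log2 1.00, adjusted p = 0.00504) also passed, as did Cd180 without thalamus set 3 (adjusted p = 0.0494) and with DESeq2 (0.0156).

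In all, 2 genes were higher in the thalamus (8.83% of all 12997 genes tested were) and 1 was lower (4.69%), and with the block 4 were higher and 1 lower. The regions did not overlap in 2 of the 10 genes and in 21% of all genes. The median log2 difference was 0.08 over the 10 genes and -0.01 over all genes. Markers of macrophages or monocytes summed to 0.689 to 1.85 per 10000 in thalamus microglia and 0.317 to 0.823 in HPC microglia, 1 of the 14 being at 0, and their part in these values was not tested. Without Malat1-poor cells 3 genes were called. Tlr1, Tlr4, Tlr7, Tlr9 and Tlr13 had differences from -0.14 to 0.08, each with an adjusted p of 0.31 or more. In bulk sums of a cell class, fewer cells of a state and less RNA per cell cannot be told apart, and the states were unequal between the regions, so the comparison was repeated within them.

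**Figure D2:**
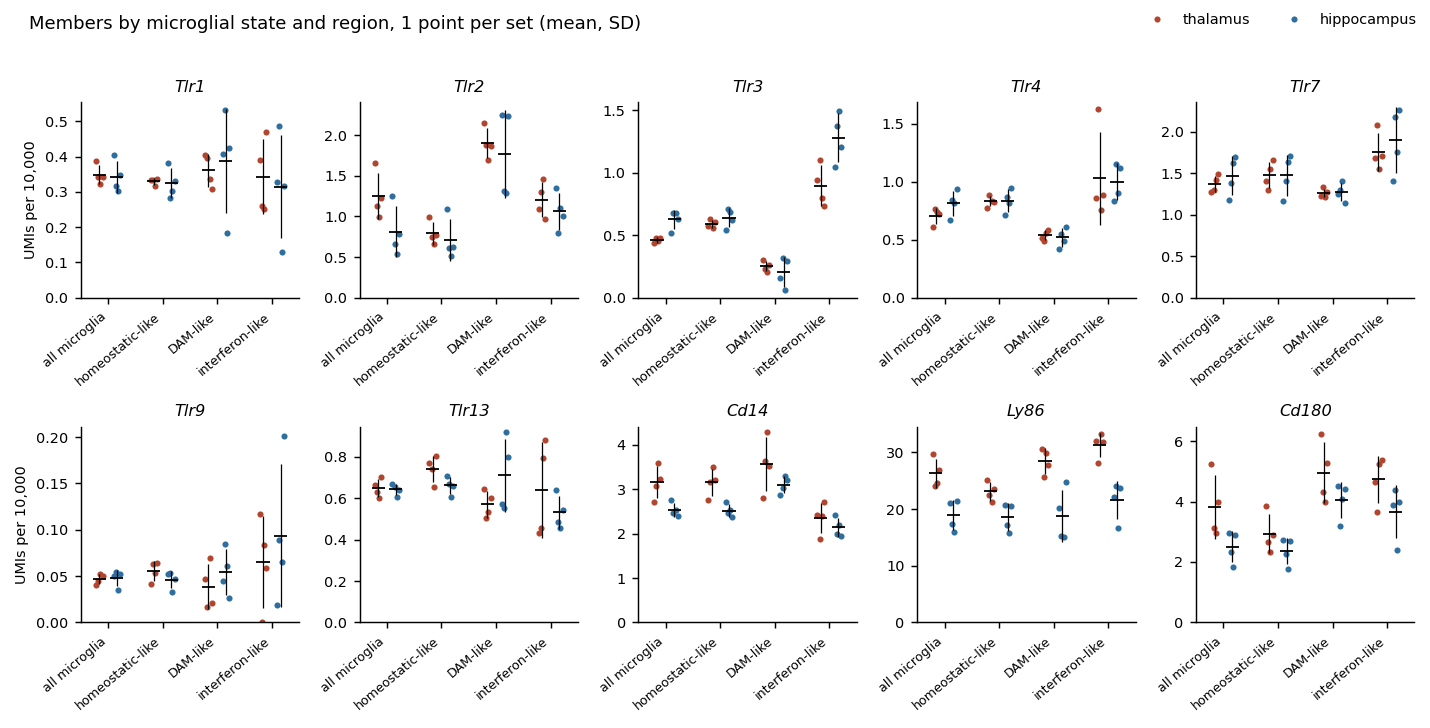
Level of each gene in UMIs per 10000 (y axis, from 0) in all gated microglia and in their homeostatic-like, DAM-like and interferon-like cells (x axis). Each point is a set, red for thalamus and blue for HPC, with mean and SD over 4 sets. Tlr2 and Cd180 rose and Tlr3 and Tlr4 fell from homeostatic-like to DAM-like cells in both regions, and Tlr3 was highest in interferon-like cells.

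Within homeostatic-like microglia none of the 10 genes passed the test by region (0.652% of all 12120 genes were higher and 0.231% lower), and 2 had an unadjusted p under 0.05, as had 13.1% of all genes. These were Cd14 and Ly86, whose sets did not overlap between the regions, as in 8.37% of all genes. Cd14 measured 2.76, 3.15, 3.51 and 3.20 in thalamus sets and 2.70, 2.45, 2.53 and 2.37 in HPC sets (log2 0.32 ± 0.08, adjusted p = 0.0932), and Ly86 25.1, 22.5, 21.3 and 23.6 against 20.8, 17.2, 15.7 and 20.5 (log2 0.31 ± 0.11, adjusted p = 0.244). With the set number as a block Cd14 (adjusted p = 0.00712), Ly86 (0.00182) and Cd180 (0.00274) were higher in the thalamus, DESeq2 called Cd14 alone (adjusted p = 0.0219), and without HPC set 1 Cd14 (0.00281), Ly86 (0.0126) and Tlr2 (0.0347) were called. The Tlr3 difference was -0.12 ± 0.08 here (adjusted p = 0.557), against -0.37 over all microglia, and that of Tlr2 0.12 ± 0.23 (adjusted p = 0.883). The difference between these fits was not tested. A list of 25 genes that tissue dissociation induces summed to 87.4 to 109 per 10000 in homeostatic-like cells of the thalamus and 66.9 to 80.1 in those of the HPC, and its part in these values was not tested.

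Within DAM-like microglia Ly86 was the 1 gene of the 9 tested that passed (1.03% of all 9927 genes were higher and 0.473% lower). It measured 30.6, 25.6, 29.9 and 27.8 in thalamus sets and 20.2, 15.3, 15.1 and 24.7 in HPC sets, again without overlap, as in 8.63% of all genes (log2 0.62 ± 0.14, adjusted p = 0.0223). The call was lost without HPC set 2 (adjusted p = 0.127) or thalamus set 1 (0.0611), 3 (0.0596) or 4 (0.0819) and at a mitochondrial limit of 5% (0.081), and with the number as a block Cd180 was called too (log2 0.36, adjusted p = 0.0493). The other genes had adjusted p-values of 0.373 or more. The DAM-like cells were not matched in score, whose median was 1.34 in the thalamus and 1.08 in the HPC. HPC set 3 held 29 of these cells.

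The states themselves were compared next, within each set, to see which receptors differ between DAM-like and homeostatic-like microglia. Tlr2 and Cd180 rose most and Tlr3 and Tlr4 fell. Tlr2 measured 2.15, 1.88, 1.70 and 1.87 in DAM-like cells of thalamus sets 1 to 4 and 2.24, 1.32, 1.28 and 2.23 in those of the HPC. In homeostatic-like cells it measured 0.992, 0.744, 0.661 and 0.774, and 1.09, 0.609, 0.509 and 0.628. It was higher in 8 of 8 sets, with a log2 difference of 1.47 ± 0.07 (adjusted p = 8.45e-17). Cd180 was 6.24, 4.33, 3.97 and 5.28 in DAM-like thalamus cells and 4.52, 3.19, 4.10 and 4.42 in DAM-like HPC cells, against 1.78 to 3.86 in homeostatic-like cells, and was higher in 8 of 8 sets (log2 0.94 ± 0.06, adjusted p = 6.47e-14).

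Tlr3 dropped to 0.303, 0.230, 0.208 and 0.262 in DAM-like cells of the thalamus and 0.156, 0.319, 0.0612 and 0.293 in those of the HPC. In homeostatic-like cells it ranged from 0.545 to 0.711. It was lower in 8 of 8 sets (log2 -1.08 ± 0.11, adjusted p = 6.77e-10). Tlr4 was 0.516, 0.490, 0.560 and 0.585 in thalamus DAM-like cells and 0.424, 0.553, 0.489 and 0.612 in HPC ones, below the 0.711 to 0.946 of homeostatic-like cells in 8 of 8 sets (log2 -0.44 ± 0.07, adjusted p = 1.12e-05).

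Its co-receptor Cd14 moved the opposite way, from 2.83 ± 0.409 to 3.34 ± 0.482 (SD over 8 sets), and was higher in 8 of 8 sets (log2 0.40 ± 0.06, adjusted p = 7.94e-07). Tlr1 was also called (log2 0.38 ± 0.10, adjusted p = 0.00235, higher in 6 of 8 sets). Ly86 was called with 0.34 ± 0.08 (adjusted p = 0.000498), although its plain level was higher in DAM-like cells in 5 of 8 sets only, 4 of them from the thalamus. The fit rescales the states, which moved the median gene up by 0.19 on the log2 scale from the ratio of plain levels, so a gene of equal plain level counts as higher there. Tlr7 (log2 0.00 ± 0.07, plain level lower in 6 of 8 sets), Tlr13 (-0.08 ± 0.08) and Tlr9 (-0.19 ± 0.28) were not called.

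Thus 5 genes were higher and 2 lower in DAM-like cells, where 24.9% of all 12383 genes were higher and 21.8% lower. The median was 0.17 over the 10 genes and -0.01 over all genes. With equal numbers of cells per sum, 29 each, Tlr2, Tlr3 and Cd180 were past the threshold, Tlr4 (adjusted p = 0.0615), Cd14 (0.0691) and Ly86 (0.236) were not, and Tlr1 fell below the filter on low counts. DAM-like cells also held more summed UMIs of the 14 markers of macrophages or monocytes, 1.10 to 4.87 per 10000 against 0.216 to 0.505 in homeostatic-like cells. The dissociation list summed to 51.6 to 65.96 in DAM-like and 66.9 to 109 in homeostatic-like cells, and the part of either list in these values was not tested.

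Whether the DAM-like change differed between regions was tested as an interaction. None of the 10 genes passed (0.315% of all genes were higher and 0.145% lower), and Ly86 alone had an unadjusted p under 0.05 (8.6% of all genes had), with a change 0.40 ± 0.12 larger in the thalamus (log2, adjusted p = 0.158). With a DAM score limit of 1.2, chosen after the data were seen, the Ly86 interaction was 0.73 (adjusted p = 0.0103), and it also passed without the filter on low counts (0.0071) and with the stricter gate (0.0354). The set medians of the score in HPC DAM-like cells were 1.01 to 1.13, so fewer HPC cells entered at the limit of 1.2. HPC set 3, with 29 DAM-like cells, then fell under the minimum of 20 cells.

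**Figure D3:**
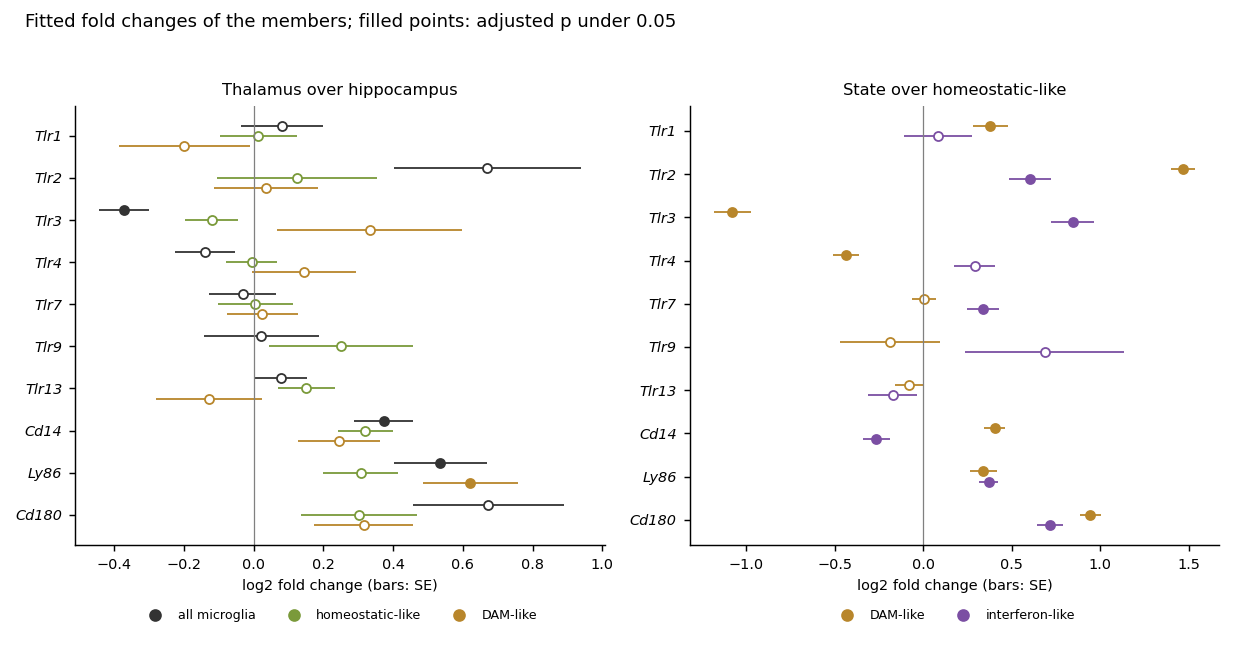
Fitted log2 fold changes of the 10 genes with their SE (x axis), thalamus over HPC in all, homeostatic-like and DAM-like microglia (left) and DAM-like or interferon-like over homeostatic-like microglia (right). Filled points had an adjusted p under 0.05. Tlr3 stands on opposite sides of 0 in the DAM-like (-1.08) and interferon-like (0.84) states.

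Interferon-like microglia, 2.37% ± 0.450 of thalamus and 2.25% ± 0.854 of HPC microglia, had more of the RNA sensors Tlr3 and Tlr7. Tlr3 measured 0.940, 1.11, 0.796 and 0.736 in thalamus sets 1 to 4 and 1.04, 1.37, 1.49 and 1.205 in HPC sets 1 to 4. Each value was above the 0.545 to 0.711 of homeostatic-like cells (log2 0.84 ± 0.12, adjusted p = 1.02e-08). Tlr7 was higher in 8 of 8 sets, from 1.48 ± 0.193 to 1.83 ± 0.308 (log2 0.34 ± 0.09, adjusted p = 0.00335). Its ratio of interferon-like to homeostatic-like level had a median of 1.21 over the 8 sets and was 1.00 in thalamus set 3. Tlr13, the sensor of ribosomal RNA, was not called (0.586 ± 0.171 against 0.701 ± 0.0652, log2 -0.17 ± 0.14, adjusted p = 0.508) and was lower in 6 of 8 sets.

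Cd180 (log2 0.72 ± 0.07, adjusted p = 1.25e-14), Tlr2 (0.60 ± 0.12, adjusted p = 2.54e-05) and Ly86 (0.37 ± 0.05, adjusted p = 1.55e-08) were higher too, each in 8 of 8 sets. Ly86 reached 28.2 to 33.2 in the thalamus and 16.7 to 24.1 in the HPC. Cd14 was lower, at 2.25 ± 0.287 against 2.83 ± 0.409, in 8 of 8 sets (log2 -0.26 ± 0.08, adjusted p = 0.0108), and this call was lost without thalamus set 2 (adjusted p = 0.071) or 3 (0.0861), with DESeq2 (0.0892), with the stricter gate (0.0661), with equal cells per sum (0.623) and without the block (0.186). Tlr4 was not called (log2 0.29 ± 0.12, adjusted p = 0.0883), except without thalamus set 3 (log2 0.35, adjusted p = 0.0431) and with the stricter gate (0.0147). In all, 5 of the 10 genes were higher and 1 lower, where 7.41% of all 11515 genes were higher and 6.18% lower. They are compared with the same homeostatic-like cells as the DAM-like ones. Markers of macrophages or monocytes summed to 1.09 to 2.67 per 10000 in interferon-like cells, and their part was not tested.

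In other cell classes only genes above the filter on low counts were tested by region, 2 in T or NK cells and 5 in neutrophils. Ly86 in T or NK cells measured 0.917, 0.522, 0.643 and 0.695 in thalamus sets and 0.282, 0.265, 0.212 and 0.308 in HPC sets. The sets did not overlap, as in 4.83% of all genes, and Ly86 passed while Cd14, the other gene above the filter, did not (log2 1.01 ± 0.31, adjusted p = 0.358). Cd14 measured 0.108 to 0.161 in thalamus sets and 0 to 0.0713 in HPC sets, so its place above the filter rested on the thalamus. The fitted Ly86 difference was 1.31 ± 0.20 (log2, SE, adjusted p = 0.00842). Thus 1 of 2 genes was higher and 0 lower, where 0.217% of all 9197 genes were higher and 0.087% lower. The call was lost without HPC set 1 (adjusted p = 0.0654) or HPC set 2 (0.0609). T or NK cells also held the 12 microglial markers, at 5.94 summed UMIs per 10000 (3.63% of the microglial level) in the thalamus and 4.98 (2.75%) in the HPC. Ly86 stood at 2.62% and 1.41% of its own microglial level, below these markers in both regions. The part of stray microglial RNA in the Ly86 values was not tested.

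In neutrophils, 6 sets with 28 to 487 cells, 0 of the 5 genes tested passed with edgeR and 0 with DESeq2 (0.0328% of all 3049 genes were higher and 0% lower), and 2, Cd14 and Ly86, had an unadjusted p under 0.05 (3.48% of all genes had). Cd14 was 2.14, 2.76 and 4.38 in thalamus sets 1, 2 and 4 and 1.22, 0.347 and 0.991 in HPC sets 1, 2 and 4 (log2 1.58 ± 0.36, adjusted p = 0.522). All 3 thalamus values were above the HPC values, and 9.28% of all genes had no overlap. The gated neutrophils also held markers of macrophages or monocytes, at 2.41 to 25.3 summed UMIs per 10000 over the sets, and their part was not tested. Ly86 was 2.18, 0.863 and 1.68 against 0.616, 0.116 and 0, with 1 UMI in HPC set 2 and 0 in HPC set 4, so its place above the filter rested on the other sets. It stood at 5.73% and 1.2% of its microglial level, where the microglial markers were at 7.99% and 6.33%. Without the filter on low counts Cd14 (adjusted p = 0.00618) and Ly86 (0.0104) passed. Macrophages or monocytes had too few HPC sets of 20 cells for a test by region.

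The rest of the pathway was counted over 87 further genes, in lists of other receptors, trafficking proteins, adaptors and kinases, transcription factors, negative regulators and target genes. In microglia by region 77 were tested, of which 10 were higher and 2 lower in the thalamus, with a median of -0.03 (8.83% of all genes were higher and 4.69% lower). Target genes made up 4 of the higher ones, including the chemokines Ccl3 (2.75 ± 0.816 against 0.678 ± 0.224, log2 2.08 ± 0.30) and Ccl4 (4.86 ± 1.24 against 1.27 ± 0.324, log2 2.00 ± 0.24). Tlr12, another endosomal receptor, was lower in the thalamus (0.148 ± 0.0138 against 0.217 ± 0.00839, log2 -0.50 ± 0.07). Dusp1, a phosphatase that limits the response, was higher (1.19 ± 0.190 against 0.535 ± 0.0700), and it also belongs to the dissociation list, of which 10 of 24 tested were higher in the thalamus and 0 lower. The summed level of that list was 69.9 to 94.97 per 10000 in the thalamus and 64.6 to 79.5 in the HPC, and its part in the regional values was not tested.

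Within homeostatic-like cells 6 of 74 pathway genes were higher in the thalamus and 0 lower, where 0.652% of all genes were higher and 0.231% lower. They were Ccl2 (log2 1.44 ± 0.16), Ccl4, Cd83, Fos (1.01 ± 0.12), Atf3 and Dusp1, of which Fos, Atf3 and Dusp1 also belong to the dissociation list. Of that list 8 of 24 genes were higher in these cells and 0 lower, and its part was not tested. In DAM-like cells 3 of 72 pathway genes were higher and 2 lower (1.03% and 0.473% of all genes), the latter being the kinase Ikbke (log2 -1.13 ± 0.24) and Acod1, the enzyme of itaconate synthesis (-2.12 ± 0.43).

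DAM-like against homeostatic-like cells moved 53 of 77 pathway genes, 28 up and 25 down, with a median of -0.05, where 24.9% of all genes were higher and 21.8% lower. Of the 17 target genes tested 11 were higher, led by Ccl3 (4.50 ± 1.45 against 0.684 ± 0.252, log2 2.93 ± 0.08) and Ccl4 (8.77 ± 2.67 against 1.32 ± 0.537, log2 2.93 ± 0.10), and Il1a (log2 -1.17 ± 0.10) and Il6 were lower. The adaptors, kinases and ligases had 4 higher and 9 lower of 21, with Ikbke higher (log2 2.94 ± 0.21) and Tab2 lower (-0.65 ± 0.06). The adaptors Myd88 and Tirap and the kinase Irak4 were also lower, while the adaptor Ticam2, Irak2 and Traf3 were also higher. Accessory and trafficking proteins had 3 higher (Cd36, Hsp90b1 and Cnpy4) and 2 lower of 9. The latter were Unc93b1, the chaperone of the endosomal receptors, and Cnpy3. Apart from Ikbke and Tab2, the genes of both lists were named after their values were seen, as was Il6. Transcription factors had 5 higher and 5 lower of 12. The NF-kB subunits Nfkb1 and Relb were higher, with Irf7, Irf8 and Atf3. The NF-kB subunits Rel (log2 -0.58 ± 0.06) and Rela were lower, with Irf5, Jun (-0.94 ± 0.07) and Fos. Jun, Fos and Atf3 also belong to the dissociation list. Apart from Rel and Jun, these factors were named after their values were seen.

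In interferon-like cells 12 of 16 target genes were higher and 0 lower, including Cxcl10 (3.11 ± 2.53 against 0.0807 ± 0.0419, log2 5.33 ± 0.18) and Ccl2 (log2 2.46 ± 0.14). Irf7, a factor that Tlr7 and Tlr9 signalling activates, rose from 0.0435 ± 0.0204 to 1.54 ± 0.222 (log2 5.28 ± 0.18). The adaptors and kinases had 1 higher and 2 lower of 21, and over all pathway genes 16 were higher and 4 lower of 76, with a median of 0.03 (7.41% of all genes were higher and 6.18% lower).

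Finally, the genes most like each member were taken by Pearson correlation of log2(CPM + 1) over 31 sums of class and set, among 10722 genes. These sums share sets and differ in depth, so the values are a description. Tlr13 was closest to Tyrobp, the signalling adaptor of Trem2 (r = 0.974), with Ralb and Rab31 next. Tlr4 was closest to Hk3 (r = 0.9596), Cd14 to the Fc receptor Fcgr3 (0.954), Cd180 to Nrp2 (0.953), Ly86 to Camk1 (0.948), Tlr7 to Nuak1 (0.939) and Tlr2 to Creg1 (0.930). Tlr9 (Tspan33, 0.902), Tlr1 (Fggy, 0.899) and Tlr3 (Gm42601, 0.881) had the lowest top values.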

How the data were processed

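Live CD45+ cells of the thalamus and HPC were tagged with oligonucleotides and sequenced as a droplet library per region. The authors deposited raw UMI counts per gene and cell, made with Cell Ranger 7.1.0 per the file headers against GRCm38/mm10. The 12 tag oligos (14.6% of UMIs) were left out of all totals.

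Cells with 200 to 7500 genes and at most 2% mitochondrial UMIs were kept. Classes were gated by counts of marker genes with a UMI (microglia at least 5 of 12), and microglial states by mean marker scores (limits 0.8 for DAM-like and interferon-like, 1.8 for homeostatic-like). No doublet caller was run, and 399 ungated cells held many markers of both microglia and T or NK cells. UMIs were summed per set and class where 20 cells or more were present, and tested with edgeR 4.0.16 (TMM, glmQLFit, filterByExpr, R 4.3.3) with Benjamini-Hochberg adjustment over all genes. Regions were compared without a block, and states and classes with the set as a block. Fold changes are log2 with their SE. Shares were compared by exact permutation tests after each cell was thinned to 2970 UMIs (scipy 1.17.1). The fits were tested on simulated counts with a single dispersion for all genes and no pairing of sets. The recovery rates therefore do not give the power for genes of wider spread. For region in microglia, 70% of genes changed by 1 on the log2 scale and 98% of those changed by 2 were recovered, and for region in DAM-like microglia 41% and 92%.

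Set numbers 1 to 4 occur in both regions. Deviations of same-numbered sets from their region means correlated at 0.502, 0.139, 0.475 and 0.175, each over 0.1, so the numbers were taken to pair the sets, from the matrix names and the data, and the fit with the set number as a block is given where it changes a call. DESeq2 1.42.0, other filters, gates and scalings of cell number, and each set left out were tried as alternatives.

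The 10 genes and all lists were chosen with earlier results of these data known. All 10 genes are described. Pathway genes are named where they passed the test with at least 20 CPM in the higher group, at most 5 per direction and comparison, by fold change. A gene of the lists was not analysed here. Totals per set give counting error only in intervals and limits.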

Additional observations from a re-analysis of the deposited data

Results flagged for a closer look

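In 98 groups of 4 sets, 2 values stood apart from the other 3 sets of their group by Dixon's criterion, and chance gives about 1 in 20 groups. Tlr1 in homeostatic-like microglia of thalamus set 3 was 0.316 UMIs per 10000, where the other thalamus sets lay between 0.334 and 0.337. Tlr4 in interferon-like microglia of thalamus set 2, with 32 cells, was 1.63, where the other thalamus sets lay between 0.754 and 0.883.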

How the results depend on the processing

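Of the 10 genes, the count called by region in microglia was 3 and became 5 with the set number as a block, 5 without both sets numbered 1 (added after seeing the data) and 1 to 5 with a set left out. Within homeostatic-like cells it was 0 and became 1 with DESeq2, 1 without the filter on low counts, 1 with equal cells per sum, 3 with the block, 2 without both sets numbered 1 and 0 to 3 with a set left out. Within DAM-like cells 1 became 0 at a mitochondrial limit of 5%, 2 with the block and 0 to 1 with a set left out. In T or NK cells by region it was 0 to 1 with a set left out, and in neutrophils 0 became 2 without the filter. DAM-like against homeostatic-like cells gave 7, and 3 with equal cells per sum. Equal cells also took the calls against microglia from 10 to 7 in T or NK cells and from 9 to 6 in neutrophils (Tlr1, Tlr3 and Tlr9 in both), from 4 to 3 in macrophages or monocytes (Tlr3) and from 8 to 7 in dendritic cells (Tlr1), and ended that of Ly86 in T or NK cells by region, each time because the gene fell below the filter. Interferon-like cells went from 6 to 5 (Cd14, tested and not called). The interaction gave 0, and 1 each without the filter, with the stricter gate and with the DAM score limit of 1.2. The shares, counted at an unadjusted p under 0.05 unlike the other counts here, gave 0, and 1 each without thinning, at the 25th percentile and at the 5% limit. With a set left out, interferon-like cells gave 5 to 6, dendritic cells 7 to 9, macrophages or monocytes 4 to 6 and neutrophils 8 to 10. Fewer genes tested or fewer cells enter some of these fits, and otherwise the cause was not tested. The block changed no other call. No called fold change turned direction, and 73 uncalled ones changed sign.

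Over all genes, calls by region in microglia numbered 1756, 3816 with the block and 783 to 2917 with a set left out. In homeostatic-like cells they numbered 107, 206 with DESeq2, 242 without the filter, 405 without both sets numbered 1, 748 with the block and 36 to 467 with a set left out. In DAM-like cells they numbered 149, 355 without the filter, 276 with the block, 33 with equal cells and 56 (without HPC set 2) to 186 with a set left out. In T or NK cells they numbered 28, 47 with DESeq2 (19.1% of them higher, against 71.4%), 116 without the filter, 15 with the stricter gate, 187 with the block, 1 with equal cells and 12 (without HPC set 1 or 2) to 25 with a set left out. The interaction gave 57 calls, 151 without the filter, 87 with the stricter gate, 2 with equal cells and 37 (without thalamus set 4) to 151 (without HPC set 1) with a set left out, and region in neutrophils 1, 3 with DESeq2, 10 without the filter, 0 with the stricter gate and 0 to 3 with a set left out. Equal cells took DAM-like cells from 5777 to 1325, interferon-like cells from 1565 to 559, macrophages or monocytes from 6313 to 2185, neutrophils from 8584 to 2264, dendritic cells from 5275 to 2800 and T or NK cells from 10922 to 3431. Region in macrophages or monocytes and B cells against microglia could not be fitted, for too few sets with 20 cells. Sums of few cells limit the precision for Tlr9 and for HPC DAM-like cells.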

Other observations

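Microglia past the limits of more than 1 state, which reached 20 cells in the 4 thalamus sets only (20 to 215 cells), held Ly86 at 39.8, 28.0, 41.4 and 42.9 UMIs per 10000. DAM-like cells of the same sets held 30.6, 25.6, 29.9 and 27.8, so Ly86 was higher in each of the 4 sets. Cycling microglia of thalamus set 1 (25 cells) held Ly86 at 40.5 and Cd180 at 5.16, with 0 UMIs of Tlr9. Neither group was tested.

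Among receptors outside the 10 genes, Tlr6, the partner of Tlr2, was at 0.146 ± 0.0157 in thalamus microglia and 0.181 ± 0.0175 in HPC microglia (SD, n = 4), and Ly96, the partner of Tlr4, at 0.596 ± 0.0280 and 0.640 ± 0.0534. Tlr8 and Tlr11 held 62 and 36 UMIs in all microglia.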
